A study of Mus musculus with 10 samples.

Results

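Small leucine-rich proteoglycans are secreted matrix proteins with a horseshoe-shaped core of leucine-rich repeats and, on most members, side chains of sulfated sugar. The members here were the 9 genes Dcn, Lum, Bgn, Fmod, Ogn, Prelp, Aspn, Omd and Podn, taken by symbol from a table of 18994 genes. All 9 were found and all 9 passed the filter on low counts, so that they stand among 15250 tested genes. The tissue was cheek skin of C57BL/6 mice of 6 to 8 weeks, shaved 3 days beforehand. A group of 5 mice was given 5 µL of vehicle into the skin of the right cheek, and the other 5 mice got the same volume holding 1 µg of MMP9, matrix metalloproteinase 9, an enzyme that degrades gelatin. Tissue was taken 4 hours after the injection, each library is 1 mouse, and its mRNA was sequenced after oligo(dT) selection. No allele or other agent is named in the labels, and neither the sex of the mice nor the make-up of the vehicle is given in the sources used here.

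As background, these proteoglycans bind collagen fibrils in the dermis and set how thick the fibrils grow and how far apart they lie. Decorin and biglycan carry chondroitin or dermatan sulfate, lumican and fibromodulin carry keratan sulfate, and asporin has a stretch of aspartates in place of a sugar chain. Fragments and free forms of decorin, biglycan and lumican also bind growth factors, receptor tyrosine kinases and Toll-like receptors, and metalloproteinases can cleave the core proteins. Sequencing measures the transcripts, not the proteins or their cleavage.

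Total estimated counts were between 17121541 and 19443099 per library, and markers of keratinocytes, fibroblasts, skeletal muscle and fat were detected in every library. The 9 keratinocyte markers summed to between 15705 and 24821 TPM (a transcript share scaled by transcript length) and the 10 skeletal muscle markers to between 21686 and 42043 TPM. Markers of skin and of muscle were thus both present. Of 5 bone markers in the table, 3 were tested, while Ibsp and Sp7 were below the filter, and the 5 summed to between 19.5 and 65.5 TPM. Of 10 tendon and cartilage markers, 8 were tested, while Matn1 and Cnmd were below the filter, and the 10 summed to between 91.2 and 257 TPM. In a bulk sample, fewer cells of a type and less RNA per cell cannot be told apart. The library of MMP9 replicate 4 stood apart: ribosomal protein genes took 12.9% of its counts, against 6.59% to 7.44% in the other 9, and its scaling factor was 0.843 against 0.993 to 1.05. Results are given with and without it where it matters.

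Of the members, 7 lie in groups of neighbouring genes, by the order of protein-coding genes in RefSeq. Dcn and Lum are adjacent on chromosome 10, with Kera next in line. Aspn, Omd and Ogn are consecutive on chromosome 13, preceded by Ecm2. Prelp and Fmod are adjacent on chromosome 1, preceded by Optc, while Podn is on chromosome 4 and Bgn on X. RefSeq promoter windows of the earlier build GRCm38.p6, running from 250 bases before to 50 bases after a start, were at hand for 7 of the 9 members (8 windows in all, 2 of them of Podn). They are shown for the neighbours on chromosome 13, whose correlations are given further on, and for Bgn and Podn as the members richest in G and C there. Capitals mark TATAAA and GGGCGG on either strand.
Aspn, chr13:49544193-49544492, plus strand: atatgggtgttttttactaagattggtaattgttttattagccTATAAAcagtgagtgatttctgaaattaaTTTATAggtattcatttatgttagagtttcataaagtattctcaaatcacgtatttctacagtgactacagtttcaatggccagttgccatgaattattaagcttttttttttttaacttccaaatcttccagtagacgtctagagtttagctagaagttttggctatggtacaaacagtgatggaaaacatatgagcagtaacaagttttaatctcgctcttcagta
Omd, chr13:49582212-49582511, plus strand: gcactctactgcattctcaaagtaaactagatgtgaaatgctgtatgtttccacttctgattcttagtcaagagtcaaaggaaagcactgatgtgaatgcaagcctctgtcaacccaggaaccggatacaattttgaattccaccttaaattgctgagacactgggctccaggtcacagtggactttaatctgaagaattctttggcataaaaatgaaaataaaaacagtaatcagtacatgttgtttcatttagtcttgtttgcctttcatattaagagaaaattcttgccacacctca
Ogn, chr13:49607765-49608064, plus strand: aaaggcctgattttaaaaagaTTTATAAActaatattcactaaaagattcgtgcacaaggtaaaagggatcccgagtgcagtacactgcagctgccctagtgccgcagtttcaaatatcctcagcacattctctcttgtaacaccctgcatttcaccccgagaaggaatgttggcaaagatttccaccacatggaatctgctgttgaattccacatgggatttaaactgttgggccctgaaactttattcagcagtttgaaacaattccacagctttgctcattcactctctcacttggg
Bgn, chrX:73483351-73483650, plus strand: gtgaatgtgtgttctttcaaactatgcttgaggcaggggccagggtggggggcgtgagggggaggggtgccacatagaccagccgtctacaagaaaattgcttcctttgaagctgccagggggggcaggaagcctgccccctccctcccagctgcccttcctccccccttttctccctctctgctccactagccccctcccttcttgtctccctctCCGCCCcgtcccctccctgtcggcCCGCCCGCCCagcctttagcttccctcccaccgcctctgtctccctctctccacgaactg
Podn, chr4:108031905-108032204, minus strand: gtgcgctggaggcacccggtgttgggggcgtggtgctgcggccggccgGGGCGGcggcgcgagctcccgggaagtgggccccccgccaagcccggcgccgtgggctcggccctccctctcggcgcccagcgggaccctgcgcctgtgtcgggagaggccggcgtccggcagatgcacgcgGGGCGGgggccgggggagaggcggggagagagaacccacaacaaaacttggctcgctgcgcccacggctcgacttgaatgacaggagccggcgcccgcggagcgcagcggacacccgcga

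The 3 promoters on chromosome 13 were poor in G and C, at 31.0% for Aspn, 37.7% for Omd and 42.3% for Ogn, where the median of 32851 windows was 52.7%. That of Bgn had 63.7% and this one of Podn 77.0%. TATAAA occurred in the Aspn and Ogn windows, each time on both strands, and in the Ogn window the 2 matches overlap. It was in none of the other 6 windows of members, and 13.6% of all windows hold it. GGGCGG occurred 3 times in the Bgn window, with 2 of the matches overlapping, and 2 times in the Podn window printed. It was in no other window of a member, and 35.7% of all windows hold it. The AP-1 letters TGANTCA were found in none of the 8 windows, against 7.81% of all. These are matches of letters in short windows and no more.

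By transcripts per length, Dcn was by far the most abundant member. It stood at 2280 ± 501 TPM over the 10 libraries (SD) and made up 65.7% of the summed TPM of the 9 genes on average (58.3% to 74.7%), rank 71 of the whole table. Bgn followed at 419 ± 120 TPM and Lum at 296 ± 88.5 TPM. Prelp, Ogn, Aspn and Fmod lay close together, at 112 ± 33.6, 110 ± 28.5, 101 ± 25.1 and 94.999 ± 26.5 TPM. Podn had 25.8 ± 6.88 TPM and Omd 11.7 ± 3.95 TPM. Each neighbouring pair in this order was compared within libraries with an exact two-sided sign-flip permutation test, adjusted over the 8 pairs by Benjamini-Hochberg. The order came from the means of the same 10 libraries, so the choice of pairs was not independent of the values tested. Dcn lay above Bgn, Lum above Prelp and Fmod above Podn in 10 of 10 libraries (exact adjusted p = 0.00521 each). Bgn lay above Lum in 9 of 10 (exact adjusted p = 0.0344) and Podn above Omd in 9 of 10 (exact adjusted p = 0.00781). The library with Lum above Bgn was MMP9 replicate 4. The steps from Prelp to Ogn, Ogn to Aspn and Aspn to Fmod did not pass, with exact adjusted p of 0.961, 0.661 and 0.681. The log2 differences there were 0.02, 0.10 and 0.11, against SDs of 0.71, 0.44 and 0.61.

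**Figure D1:**
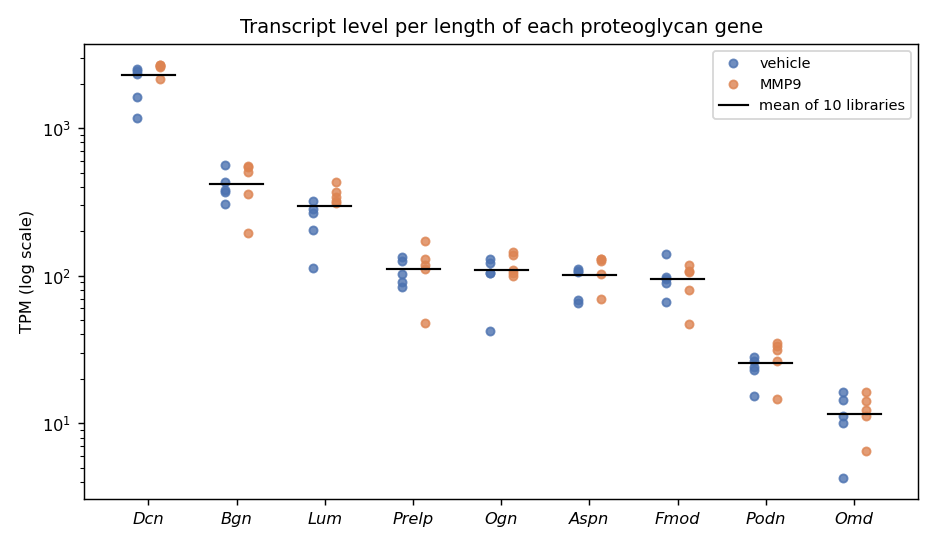
Transcript level of each proteoglycan gene in TPM on a log scale, 1 point per library (5 vehicle, 5 MMP9), with the mean of the 10 libraries as a line. Dcn lies highest at a mean of 2280 TPM, Prelp, Ogn, Aspn and Fmod share a level near 100, and Omd is lowest at 11.7 TPM.

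The study's contrast asks which transcripts differ in cheek skin 4 hours after MMP9. Of the 9 proteoglycan genes, 0 passed edgeR's quasi-likelihood test at a Benjamini-Hochberg adjusted p of 0.05, where 0% of the tested genes were called. At an unadjusted p under 0.05 there was 1 of 9, Lum, against 3.19% of all tested genes and 2.07% for those higher with MMP9, as Lum was. For none of the 9 were the groups free of overlap, as they were for 0.564% of tested genes. The log2 fold change of MMP9 over vehicle was above 0 for 8 of 9 members, with a median of 0.26, beside 53.7% of all tested genes and a median of 0.01. Without MMP9 replicate 4 it was above 0 for 7 of 9, with a median of 0.24, beside 47.6% and -0.0069. The median was 0.17 without vehicle replicate 2 (8 of 9 above 0) and 0.42 without MMP9 replicate 3 (7 of 9), so its size rests on single libraries. The 9 genes were measured in the same libraries, so these signs are not independent and carry no test. DESeq2 and limma-voom also called 0 of the 9, each with 1 at an unadjusted p under 0.05.

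**Figure D2:**
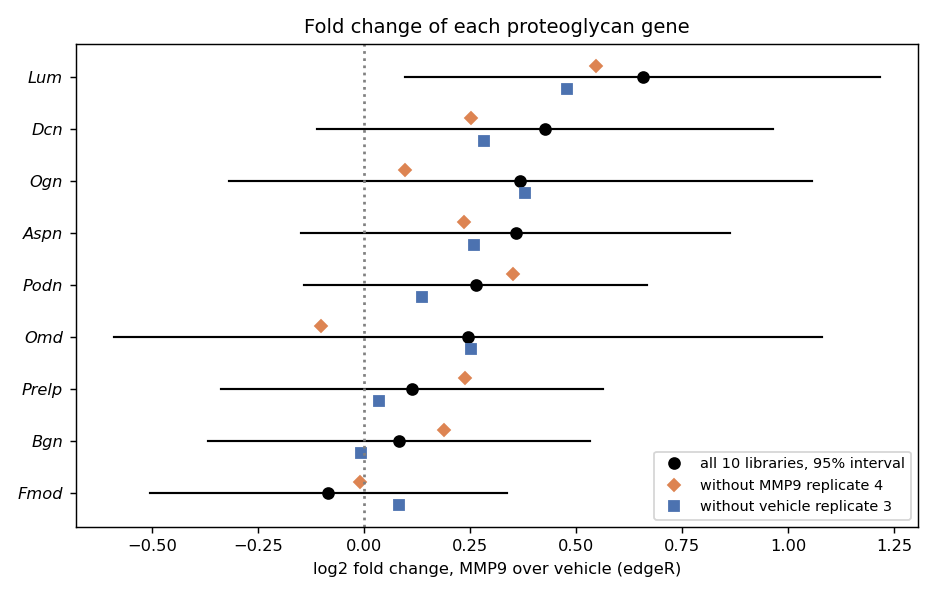
Log2 fold change of each proteoglycan gene (MMP9 over vehicle, edgeR) with its 95% interval over all 10 libraries, and the values without MMP9 replicate 4 (diamonds) and without vehicle replicate 3 (squares). Only the interval of Lum, 0.10 to 1.22, leaves out 0, and Omd lies at -0.0998 without MMP9 replicate 4.

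Decorin, the main dermatan sulfate proteoglycan of skin, binds type I collagen and transforming growth factor beta. Levels within a gene are given as CPM, read counts scaled to library size with TMM factors. Dcn (Entrez gene 13179) stood at 2779, 1764, 1282, 2707 and 2481 CPM in vehicle mice 1 to 5, and at 2173, 2657, 2760, 4283 and 2938 CPM in MMP9 mice 1 to 5. The groups overlap: in CPM, 2 of 5 MMP9 libraries lay above all vehicle libraries, and vehicle replicates 2 and 3 lay below all others. The means were 2203 ± 653 and 2962 ± 791 CPM (SD, n = 5), which gave log2 fold change 0.43 ± 0.24 (SE) at edgeR adjusted p = 0.981. It went to 0.25 without MMP9 replicate 4 and to 0.28 without vehicle replicate 3. On the TPM scale MMP9 replicate 4 was not extreme, at 2614 TPM among MMP9 values of 2159 to 2690. There, MMP9 replicates 2, 3, 4 and 5 lay above all vehicle libraries, whose highest was replicate 1 at 2506 TPM. MMP9 replicate 1, at 2159 TPM, lay within the vehicle range.

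Biglycan, the closest relative of decorin, also carries chondroitin or dermatan sulfate and in free form can act on Toll-like receptors 2 and 4. Bgn (Entrez gene 12111) had 538, 547, 440, 629 and 781 CPM in vehicle and 719, 690, 484, 420 and 795 CPM in MMP9. The ranges almost coincide, and the lowest library of all was MMP9 replicate 4. The means of 587 ± 128 and 622 ± 161 CPM (SD, n = 5) differed by 0.083 ± 0.20 (SE) on the log2 scale, at edgeR adjusted p = 0.986. Its 95% interval was -0.37 to 0.53. The sign was not stable: the value was 0.19 without MMP9 replicate 4, -0.0055 without vehicle replicate 3 and -0.021 without MMP9 replicate 5. The ratio of Bgn to Dcn in TPM was 0.147, 0.235, 0.260, 0.176 and 0.239 in vehicle and 0.251, 0.197, 0.132, 0.0743 and 0.205 in MMP9. The lowest ratio again belonged to MMP9 replicate 4, and the other 4 MMP9 libraries lay within or just under the vehicle range. The ratio did not differ between groups beyond its spread (log2 difference -0.38, exact two-sided permutation p = 0.333, adjusted over 2 ratios 0.333; the 252 splits allow a p down to 0.00794). Without MMP9 replicate 4 the log2 difference was -0.11.

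Lumican, a keratan sulfate proteoglycan in cornea that occurs in skin mostly as a glycoprotein with short chains, limits fibril thickness. Lum (Entrez gene 17022) had 355, 249, 139, 333 and 383 CPM in vehicle mice and 353, 428, 397, 589 and 534 CPM in MMP9 mice. Here 4 of 5 MMP9 libraries lay above all vehicle libraries, MMP9 replicate 1 lay among them, and vehicle replicate 3 was the lowest of the 10. In TPM, MMP9 replicates 1 and 4, at 312 and 319 TPM, both lay below vehicle replicate 5 at 321 TPM. The means were 292 ± 99.2 and 460 ± 98.2 CPM (SD, n = 5), or log2 fold change 0.66 ± 0.25 (SE). The unadjusted p was 0.0254 in edgeR and the adjusted p 0.981, so it did not pass. It was above 0.05 without vehicle replicate 2, MMP9 replicate 4 or MMP9 replicate 5, at 0.0556, 0.0679 and 0.0554 unadjusted in edgeR. Over 22 alternatives the log2 fold change ran from 0.48, without vehicle replicate 3, to 0.77, without vehicle replicate 5. The sign was positive in all 22, and the adjusted p lay between 0.887 and 1.00. With mouse number as a block, which also uses all 10 libraries, Aspn joined Lum at an unadjusted p under 0.05, with 0.0388 and 0.0111 in edgeR (adjusted p = 0.996 each).

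Fibromodulin, the nearest relative of lumican, shares a binding region on collagen with it and promotes cross-linking. Fmod (Entrez gene 14264) had 169, 123, 262, 181 and 178 CPM in vehicle and 205, 190, 186, 132 and 149 CPM in MMP9. All MMP9 values lay inside the vehicle range, whose ends are vehicle replicates 2 and 3. The means of 183 ± 50.4 and 172 ± 30.5 CPM differed by -0.084 ± 0.19 (SE) on the log2 scale (edgeR adjusted p = 0.985). The difference was 0.082 without vehicle replicate 3 and -0.0085 without MMP9 replicate 4. In vehicle replicate 3, Fmod was at its highest while Dcn, Lum and Podn were at their lowest. The ratio of Lum to Fmod in TPM was 3.19, 3.07, 0.802, 2.79 and 3.26 in vehicle and 2.62, 3.41, 3.24, 6.76 and 5.44 in MMP9. Vehicle replicate 3 was the low end and MMP9 replicates 4 and 5 the high end. The log2 difference of 0.78 did not pass (exact two-sided permutation p = 0.143, adjusted over 2 ratios 0.286), and it was 0.39 without vehicle replicate 3.

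Prelp, a proteoglycan-like protein with a basic, heparin-binding tail that anchors basement membranes to connective tissue, had 225, 193, 180, 293 and 262 CPM in vehicle. In MMP9 it had 260, 240, 351, 156 and 241 CPM. The highest and the lowest of the 10 libraries were thus both in the MMP9 group, replicates 3 and 4. The means were 231 ± 47.2 and 250 ± 69.6 CPM (SD, n = 5), with log2 fold change 0.11 ± 0.20 (SE) and edgeR adjusted p = 0.981. The value was 0.24 without MMP9 replicate 4, 0.055 and 0.036 without vehicle replicates 2 and 3, and -0.044 without MMP9 replicate 3.

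Osteoglycin, also called mimecan, is a small member made in connective tissue and cornea. Ogn (Entrez gene 18295) had 164, 64.4, 161, 203 and 184 CPM in vehicle and 155, 146, 153, 335 and 214 CPM in MMP9. MMP9 replicate 4 was highest and vehicle replicate 2 lowest, and the other 8 libraries lay between 146 and 214 CPM. The log2 fold change was 0.37 ± 0.31 (SE; edgeR adjusted p = 0.981). It went to 0.097 without MMP9 replicate 4 and to 0.17 without vehicle replicate 2.

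Asporin, which binds collagen and transforming growth factor beta, had 149, 95.2, 91.8, 157 and 146 CPM in vehicle and 166, 166, 91.4, 215 and 182 CPM in MMP9. Of the MMP9 libraries, 4 lay above all vehicle libraries and MMP9 replicate 3 lay below them all. This holds for CPM only. In TPM, MMP9 replicate 4 at 102 TPM lay below vehicle replicates 1, 4 and 5, and MMP9 replicate 3 at 69.4 TPM lay above vehicle replicates 2 and 3. The means of Aspn were 128 ± 31.8 and 164 ± 45.2 CPM (SD, n = 5), so that the log2 fold change was 0.36 ± 0.23 (SE; edgeR adjusted p = 0.981). It stood at 0.24 without MMP9 replicate 4 and 0.51 without MMP9 replicate 3. In the latter case the unadjusted p was 0.0199 and the edgeR adjusted p 0.910.

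Osteomodulin, a keratan sulfate proteoglycan best known from bone and tooth, was the least abundant member. Omd (Entrez gene 27047) had 11.6, 4.75, 12.9, 16.2 and 17.4 CPM in vehicle and 14.7, 11.9, 6.99, 27.5 and 13.7 CPM in MMP9. As for Ogn, MMP9 replicate 4 was highest and vehicle replicate 2 lowest. The log2 fold change was 0.25 ± 0.38 (SE), with a 95% interval of -0.59 to 1.08 and edgeR adjusted p = 0.981. Without MMP9 replicate 4 it was -0.0998, without vehicle replicate 2 it was 0.036, without MMP9 replicate 3 it was 0.42 and without vehicle replicate 5 it was 0.39.

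Podocan, a member with more leucine-rich repeats than the others that binds type I collagen, had 43.7, 37.2, 24.5, 48.5 and 39.9 CPM in vehicle and 40.3, 51.3, 55.3, 34.3 and 51.5 CPM in MMP9. Of the MMP9 libraries, 3 lay above all vehicle libraries, and vehicle replicate 3 was lowest. The means of Podn were 38.8 ± 9.04 and 46.5 ± 8.84 CPM (SD, n = 5), with log2 fold change 0.26 ± 0.18 (SE) and edgeR adjusted p = 0.981. Its value was 0.14 without vehicle replicate 3 and 0.35 without MMP9 replicate 4.

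**Figure D3:**
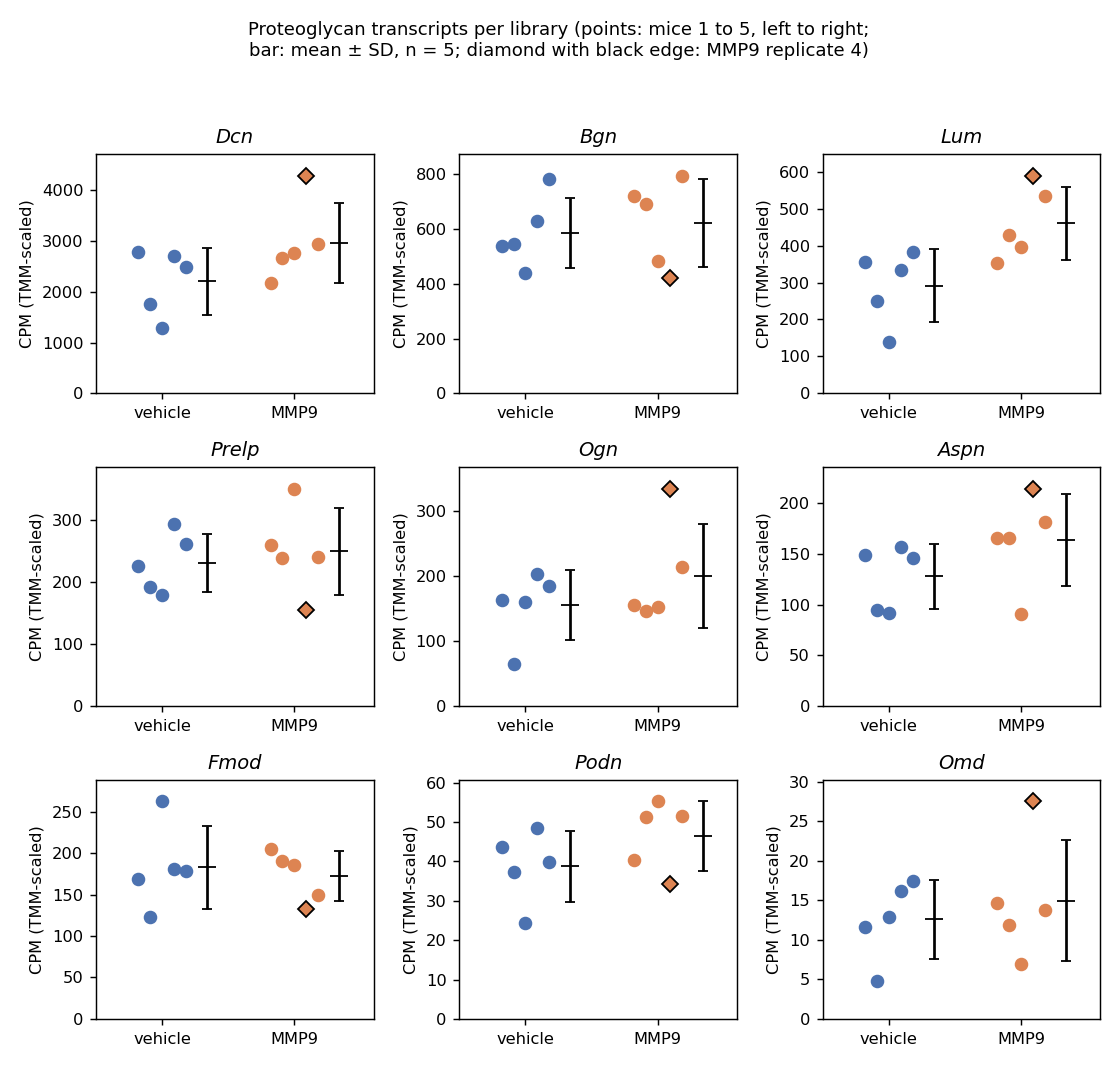
TMM-scaled CPM of the 9 proteoglycan genes in each library, vehicle left and MMP9 right, with the mean and SD of each group (n = 5); the diamond is MMP9 replicate 4. The groups overlap in every panel, and the diamond is the highest point for Dcn, Lum, Ogn, Aspn and Omd and the lowest MMP9 point for Bgn, Prelp, Fmod and Podn.

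In CPM, MMP9 replicate 4 split the family. It was the highest of the 10 libraries for 5 members, Dcn, Lum, Ogn, Aspn and Omd, and the lowest or next to lowest for the other 4, Bgn, Prelp, Fmod and Podn. In TPM, MMP9 replicate 4 was highest only for Ogn (144 TPM) and Omd (16.3 TPM), and lowest for Bgn, Prelp, Fmod and Podn. Its values for Dcn, Lum and Aspn, 2614, 319 and 102 TPM, lay inside the range of the other libraries. Relative to the mean of the other 9 libraries, its log2 CPM was 1.26 higher for Omd, 1.12 for Ogn, 0.88 for Dcn, 0.82 for Lum and 0.68 for Aspn. It was -0.65 for Prelp, -0.54 for Bgn, -0.44 for Fmod and -0.31 for Podn. The same 2 sets differ in the base composition of their mRNAs, by the longest coding transcript of each gene in GENCODE M21. The mRNAs of Aspn, Omd, Ogn, Lum and Dcn hold 34.3%, 36.1%, 36.3%, 41.9% and 42.8% G and C. Those of Bgn, Fmod, Prelp and Podn hold 52.5%, 53.7%, 53.8% and 57.2%. Aspn, Omd and Ogn were each below 99% of the tested genes in this. The first 5 are also mostly shorter, at 1758 to 2566 bases against 2419 to 3615.

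Over 14876 tested genes with a value (97.5%), the same library differed from the mean of the other 9 by a median of 0.14 in the lowest of 5 equal bins by G and C and by -0.11 in the highest. By length the median was 0.54 in the shortest of 5 bins and -0.40 in the longest. Across genes, Spearman's rho of its deviation with mRNA length was -0.62, and the other 9 libraries had values from 0.045 to 0.38. Its rho with G and C content was -0.16, just beyond the range of -0.15 to 0.18 of the other libraries. Genes are not independent replicates, so these are descriptions. With a correction of each library for G and C content and length, chosen after this library was seen, the log2 fold changes of MMP9 over vehicle were 0.58 for Lum, 0.31 for Dcn, 0.27 for Podn, 0.20 for Ogn, 0.18 for Aspn, 0.12 for Prelp, 0.066 for Bgn, 0.045 for Omd and -0.082 for Fmod. The part of base composition, length or RNA quality in the values of this library was not tested further.

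**Figure D4:**
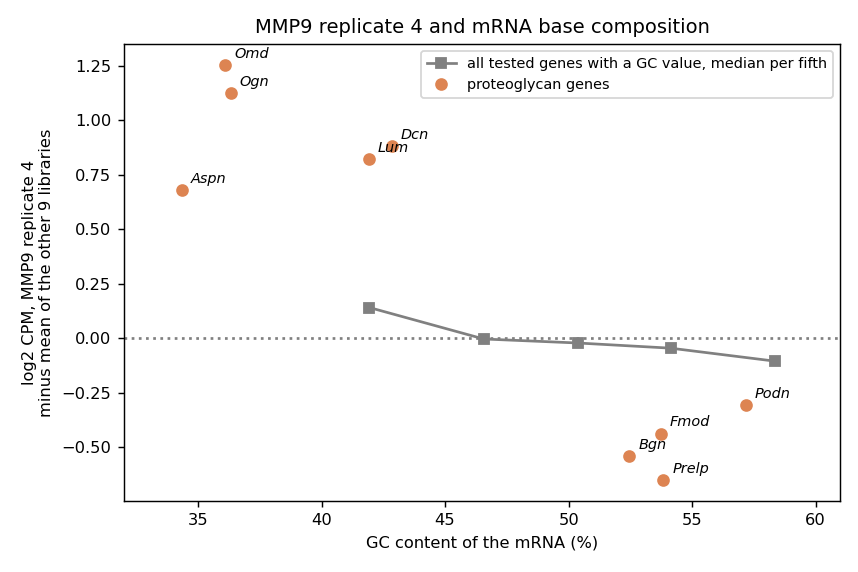
Log2 CPM of MMP9 replicate 4 minus the mean of the other 9 libraries (y axis) against the G and C content of the mRNA in percent (x axis), for the 9 proteoglycan genes and as medians for 5 equal bins of all tested genes with a value. The 5 members between 34.3% and 42.8% lie above 0 and the 4 members from 52.5% to 57.2% below it, while the medians of all genes run from 0.14 to -0.11.

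From mouse to mouse, decorin and lumican transcripts moved together most closely. Over 10 libraries, Pearson's r of log2 CPM between Dcn and Lum was 0.94 (permutation p = 0.00012, adjusted over 36 pairs 0.00432) and Spearman's rho 0.81 (permutation p = 0.00742, adjusted 0.197). It was 0.80 without the 2 libraries farthest from the median of Dcn, 0.93 after subtracting the group means, and 0.94 without MMP9 replicate 4. Ogn and Omd, neighbours on chromosome 13, had r = 0.90 (permutation p = 0.0009, adjusted 0.0162) and rho = 0.78 (permutation p = 0.0109, adjusted 0.197). Without the 2 libraries farthest from the median of Ogn, vehicle replicate 2 and MMP9 replicate 4, r was 0.54, so this relation rests in part on them. Of the 36 pairs, these 2 passed for r and 0 for rho, and 26 had a positive r.

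The third gene of that neighbourhood, Aspn, had r = 0.77 with Omd and 0.68 with Ogn (permutation adjusted p = 0.0701 and 0.0826), while the neighbours Prelp and Fmod had 0.27 (permutation adjusted p = 0.746). Fmod ran against Lum and Dcn, with r = -0.55 and -0.53 (permutation adjusted p = 0.327 each), and without the 2 farthest libraries r was 0.36 and 0.45. Podn stood at r = 0.55 with Dcn and 0.66 with Lum over 10 libraries. Without MMP9 replicate 4 these were 0.94 and 0.91 (exact permutation adjusted p = 0.0166 and 0.0299, n = 9). Bgn with Aspn likewise went from 0.38 to 0.84 (exact permutation adjusted p = 0.0449, n = 9). Without that library 5 of 36 pairs passed, the 2 above and these 3, in a setting that was not planned beforehand. Over 10 libraries, Spearman's rho was 0.44 for Podn with Dcn, 0.42 for Podn with Lum and 0.28 for Bgn with Aspn. Without the 2 libraries farthest from the median of Dcn, Lum or Bgn, r for these 3 pairs was 0.80, 0.69 and 0.81. These were MMP9 replicate 4 with vehicle replicate 3 for Dcn and Lum, and with MMP9 replicate 5 for Bgn. As MMP9 replicate 4 is left out each time, this is no separate check.

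**Figure D5:**
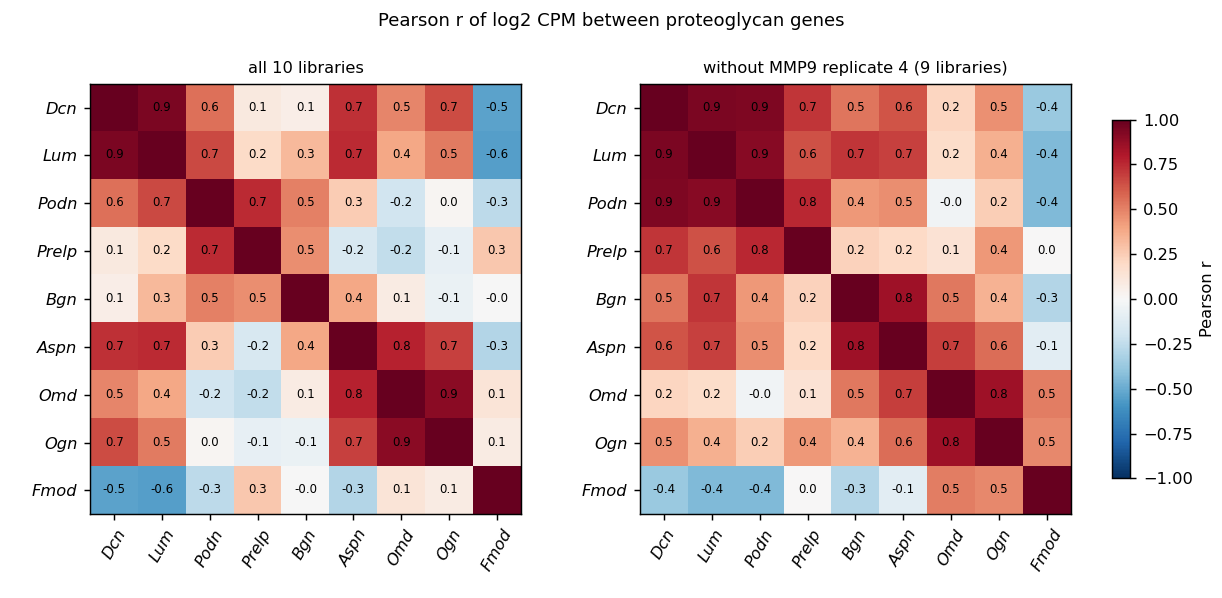
Pearson's r of log2 CPM between each pair of proteoglycan genes, over all 10 libraries (left) and without MMP9 replicate 4 (right); colour and number give r. Dcn with Lum is at 0.94 on both sides, Podn with Dcn goes from 0.55 to 0.94, and Fmod is negative with Dcn and Lum in both.

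The mean profile of the 9 genes, each centred on its own mean log2 CPM, was lowest in vehicle replicate 2 at -0.59 and vehicle replicate 3 at -0.43. The other 8 libraries lay between -0.047 and 0.28. Vehicle replicates 2 and 3 were each the lowest library for 3 members. Hair markers in those libraries lay at opposite ends. The 15 hair shaft and inner root sheath markers in the table summed to 10.3 TPM in vehicle replicate 2 and to 6692 TPM in vehicle replicate 3, the ends of the vehicle range, and to between 15.6 and 2138 TPM in MMP9. Of these 15 genes 0 lay above 0 in log2 fold change, with a median of -1.22, and none passed. Without vehicle replicate 3 it was 1 of 15, with a median of -0.55, and limma-voom gave 2 of 15. The 16 fibroblast markers summed to between 2397 and 4473 TPM in vehicle, with replicates 3 and 2 lowest, and to between 2338 and 5080 TPM in MMP9, lowest in replicate 4. Col1a1, Col1a2, Col3a1, Dpt and Loxl1 are also in the list of collagens and fibril genes given further on, so these lists are not separate readings. Of the fibroblast markers 15 of 16 lay above 0, with a median of 0.15, but 10 of 16 with a median of 0.042 without vehicle replicate 3, 12 of 16 with 0.049 without vehicle replicate 2 and 9 of 16 with 0.039 without MMP9 replicate 5. The 10 tendon and cartilage markers summed to 91.2 TPM in vehicle replicate 2 and 257 TPM in vehicle replicate 3, the lowest and the highest of the 10 libraries. Fmod had the same 2 ends in CPM, but in TPM its lowest library was MMP9 replicate 4, at 47.15 TPM. The part of the hair, fibroblast, tendon and cartilage markers in the proteoglycan values was not tested. Among 10977 other genes of at least 10 CPM, the 10 with the profile most like that mean were Ikbip, H2-Eb1, Tpst1, H2-Aa, Jam3, Ms4a4d, Cnrip1, H2-Ab1, Itgbl1 and Sdc2, with Pearson's r from 0.97 down to 0.92 over 10 libraries, ranked by r and given with no test. H2-Eb1, H2-Aa and H2-Ab1 encode chains of class II histocompatibility molecules, and Sdc2 encodes syndecan 2, a membrane proteoglycan. Without MMP9 replicate 4 their r was between 0.92 and 0.97.

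Other genes of the family and of the pathway were read from lists, and none of their members passed in edgeR in either direction. Of 9 further leucine-rich repeat genes, 7 were tested, 4 with a value above 0 and 3 below, with a median of 0.060. The median was 0.22 without vehicle replicate 3 (5 of 7 above 0), 0.0029 without MMP9 replicate 4 (4 of 7) and -0.017 without vehicle replicate 4 (2 of 7). Ecm2, the neighbour of Aspn, averaged 83.1 ± 18.5 CPM with vehicle against 98.2 ± 16.0 CPM after MMP9 (log2 fold change 0.24 ± 0.17, SE; edgeR adjusted p = 0.981). Kera, which encodes the corneal keratocan and lies next to Lum, had 10.2 ± 3.09 and 11.1 ± 0.834 CPM. Optc, the neighbour of Prelp known from the eye, had 0.948 ± 0.202 and 1.13 ± 0.270 CPM. Epyc, known from cartilage, had 57 counts over the 10 libraries and was below the filter.

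The collagens that these core proteins coat, with enzymes and linkers of the fibril, were above 0 in 19 of 24 genes, with a median of 0.13. It was 13 of 24 with a median of 0.027 without vehicle replicate 3, 14 of 24 with 0.045 without vehicle replicate 2, and 12 of 24 with 0.0045 without MMP9 replicate 5. On log2(TPM + 1) it was 16 of 24, where 36.7% of all tested genes lay above 0. Col1a1, a chain of the main dermal collagen, averaged 2331 ± 489 CPM with vehicle against 2554 ± 1145 CPM after MMP9, and Col1a2, the other chain, at 1839 ± 529 and 2064 ± 771 CPM. Col3a1, the type III chain, had 2358 ± 839 and 2777 ± 1120 CPM. The log2 fold changes of these 3 were 0.13, 0.17 and 0.24, with standard errors of 0.31, 0.29 and 0.33. Without MMP9 replicate 5 that of Col3a1 was 0.017. In MMP9 replicate 3, Col1a1 and Col1a2 were at their lowest CPM of all 10 libraries, 1264 and 1111 CPM. Dcn and Lum in that library lay at 2760 and 397 CPM. In TPM, Col1a1 and Col1a2 were instead lowest in MMP9 replicate 4, at 256 and 307 TPM. Col5a1, which helps start fibrils, had a log2 fold change of 0.24 (0.061 without MMP9 replicate 5), Col12a1 and Col14a1, chains on the fibril surface, 0.15 and 0.094, Col6a1, a beaded-filament chain, 0.051, and Lox, the cross-linking oxidase, -0.0022. The signs of Col1a1, Col1a2, Col6a1, Col12a1, Col14a1 and Lox changed under at least 1 alternative.

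Genes for building the sugar chains lay near 0. Of 22 chondroitin and dermatan sulfate genes, 14 were above 0 and 8 below, with a median of 0.038, while it was 11 of 22 with 0.0079 without vehicle replicate 2 and 9 of 22 with -0.025 on log2(TPM + 1). Dse, the epimerase that turns chondroitin into dermatan, averaged 49.0 ± 7.04 CPM with vehicle against 51.4 ± 5.49 CPM after MMP9. Chst14, the sulfotransferase of dermatan, had 26.6 ± 5.37 and 24.3 ± 3.99 CPM. Csgalnact1 and Chsy1, which start and extend chondroitin, had log2 fold changes of 0.16 and -0.094. Of 9 keratan sulfate genes, 7 were tested, 5 above and 2 below 0, with a median of 0.018, and 3 of 7 with -0.0025 without vehicle replicate 2. Chst1, a keratan sulfotransferase, had 24.7 ± 8.71 and 24.7 ± 9.61 CPM, and B3gnt7, a chain-extending enzyme, 1.84 ± 0.130 and 2.33 ± 0.908 CPM. For these genes the group means differed by less than the SD of at least 1 group.

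Receptors and growth factors that bind the core proteins were split, 12 of 25 tested above 0 and 13 below, with a median of -0.012, but 17 of 25 with 0.029 without vehicle replicate 5. Tlr2, a receptor for free biglycan, averaged 12.6 ± 2.82 CPM with vehicle against 16.8 ± 3.82 CPM after MMP9, for a log2 difference of 0.41 ± 0.19 (SE). Tlr4, another such receptor, had 19.9 ± 5.95 and 20.8 ± 2.31 CPM. Egfr and Met, kinases that decorin binds, had log2 fold changes of -0.067 and 0.068, and Tgfb1, a growth factor that decorin and asporin bind, had -0.012. Ccn4, a matricellular protein that binds decorin and biglycan, had 6.84 ± 2.64 and 9.74 ± 3.76 CPM, for a log2 difference of 0.51 ± 0.32 (SE). Each had an edgeR adjusted p of at least 0.981.

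The list of proteases that process or cleave the core proteins also holds Pcolce, which is not itself a protease. Of the listed genes, 16 of 17 were above 0, with a median of 0.18. Without vehicle replicate 3 it was 14 of 17 with a median of 0.12, and without vehicle replicate 5 it was 17 of 17 with 0.31. Bmp1, which removes the propeptide of biglycan, Mmp2, the other gelatinase, Mmp14, its membrane-bound activator, and Adamts5, an aggrecanase, were at 0.10 ± 0.15, 0.11 ± 0.19, 0.17 ± 0.22 and 0.18 ± 0.24 in log2 fold change (SE). Leaving out 1 library took Bmp1 to 0.030 (vehicle replicate 3), Mmp2 to -0.022 (vehicle replicate 3), Mmp14 to 0.037 (MMP9 replicate 1) and Adamts5 to 0.032 (MMP9 replicate 3). In each of the 4 the difference between group means was smaller than the SD of either group. A pair of proteases was picked out after their values were seen. Htra1, a secreted serine protease, was the 1 of 17 whose groups did not overlap in CPM, beside 0.564% of all tested genes. It had 135 to 180.2 CPM under vehicle and 184 to 193 CPM under MMP9 (log2 fold change 0.27 ± 0.095, SE, edgeR adjusted p = 0.981). Overlap in TPM was not examined for this gene. Mmp12, the macrophage elastase, had the highest fold change of the list, 2.76 ± 0.88 (SE; edgeR adjusted p = 0.981), with 4.88 to 25.4 CPM under vehicle and 12.3 to 252 CPM under MMP9. Its groups overlap, and the highest library, MMP9 replicate 5, stood at 252 CPM where the next had 58.0 CPM.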

How the data were processed

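The authors deposited 1 table with an estimated count, a TPM and an FPKM value per gene and library, per the file headers. The deposited estimated counts need not be whole; the deposited TPM and FPKM values are scaled by transcript length by the authors. HISAT and GRCm39 are named in the submitters' processing notes. For the quantifier, the annotation, strand and filters: not given in the sources used here. Averages deposited were not used.

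Estimated counts were rounded and tested with edgeR 4.0.16 (R 4.3.3): TMM factors, filterByExpr by group, quasi-likelihood F test with treatment as the only term, and Benjamini-Hochberg adjustment over 15250 genes at 0.05. The filter left out 3744 genes. CPM values are TMM-scaled, and log2 CPM has a prior count of 2. Standard errors come from the F statistic. The fit was tested on simulated data. Ratios and neighbouring levels were tested by exact permutation on TPM, and correlations with 100000 permutations. Alternatives included DESeq2 1.42.0 and limma 3.58.1. Mouse number gives no stated pairing, and the tests between groups weigh a difference against the spread between mice. The smallest chi-square per gene between any libraries was 18.5, where sampling noise gives about 1, so none was a duplicate.

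The members and lists were chosen with earlier results of these data known. All 9 members are named; partners named were set by role, and the 10 most similar genes by r. The gene symbols Krt85 and Bglap, from the marker lists, were not analysed here. mRNA length and base composition came from GENCODE M21 and promoter windows from RefSeq, both on GRCm38, an earlier build than that of the files. Precision is limited by 5 mice per group: at these depths even Omd had 2476 estimated counts in all.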

Additional observations from a re-analysis of the deposited data

Results flagged for a closer look

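Of 78 groups of 5 libraries examined for a single library far from the others, 2 were flagged, where chance flags about 1 in 20. The ratio of Lum to Fmod in TPM was 0.802 in vehicle replicate 3, below 2.79 to 3.26 in the other 4 vehicle libraries. In that library the hair markers summed to 6692 TPM, the highest of the 10, and the fibroblast markers to 2397 TPM, the lowest of the vehicle group. The tendon and cartilage markers summed to 257 TPM there, the highest of the 10, against 91.2 to 181 TPM in the others. Their part in the ratio was not tested. Egfr stood at 75.2 CPM in vehicle replicate 3, above 64.6 to 67.7 CPM in the other 4.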

How the results depend on the processing

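The count of members passing stayed at 0 under every alternative run, and so did the count of all genes passing, except with DESeq2, which called 1 gene that is no member. With 5 mice a group, changes of the size of that of Lum did not pass. The mouse numbers were not taken as pairing the samples, since no label says so and the correlations of deviations between same-numbered libraries ran from -0.24 to 0.46, with 3 of 5 above 0.1; 3 of 10 libraries correlated best with their own number. With mouse number as a replicate block 0 genes passed, with 554 at an unadjusted p under 0.05 against 487, Lum stood at 0.72 on the log2 scale and Aspn at 0.34 (members with an unadjusted p under 0.05: 2 against 1), and the ratio differences were -0.38 for Bgn to Dcn and 0.78 for Lum to Fmod; no call changed. In vehicle libraries alone 0 of 8 neighbouring levels passed against 5, since 5 libraries cannot give an exact p below 0.05. Without MMP9 replicate 4, a setting that was not planned beforehand, 5 pairs of members passed as correlated against 2.

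Signs turned as follows, on the log2 scale. With upper-quartile factors Lox was 0.022, Chst1 0.026 and Tgfb1 0.014; with limma-voom Lox was 0.048 and Tgfb1 0.010; with the replicate block Lox was 0.046 and Tgfb1 0.0097; with the G and C and length correction Lox was 0.0074. On log2(TPM + 1) Col1a1 was -0.047 and Col6a1 -0.0096, and on log2(TPM + 0.1) -0.047 and -0.010. With vehicle replicate 2 and MMP9 replicate 1 left out together, Col1a1 was -0.040, Col1a2 -0.00034, Col6a1 -0.10, Col12a1 -0.14, Chst1 0.13, Met -0.036 and Tgfb1 0.012. Leaving out 1 library at a time gave ranges of -0.021 to 0.20 for Bgn, -0.20 to 0.082 for Fmod, -0.044 to 0.24 for Prelp, -0.0998 to 0.42 for Omd, -0.040 to 0.30 for Col1a1, -0.0079 to 0.32 for Col1a2, -0.067 to 0.19 for Col6a1, -0.14 to 0.32 for Col12a1, -0.15 to 0.31 for Col14a1, -0.12 to 0.17 for Lox, -0.19 to 0.15 for Chst1, -0.041 to 0.21 for Tlr4, -0.16 to 0.029 for Egfr, -0.0066 to 0.16 for Met, -0.11 to 0.12 for Tgfb1, -0.022 to 0.21 for Mmp2 and -0.0045 to 0.26 for Kera. The cause was not tested. Dcn, Lum, Ogn, Aspn and Podn kept a positive value under all 22 alternatives.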
